A study of Homo sapiens with 12 samples.

Results

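PKIB, PTPRZ1 and THBS1 are the 3 genes described here, of 12293 protein-coding genes with an N4-acetylcytidine (ac4C) peak in at least 1 library. They were chosen by the peak lists themselves, because each control library and no NAT10-knockdown library listed a peak in them, so that difference is given as a description and was not tested. The 17 peaks of these genes came from 6 acetylated RNA immunoprecipitation sequencing (acRIP-seq) libraries of SW620, a human colorectal cancer cell line. A library is made from fragmented RNA pulled down with an antibody against ac4C, and modified stretches of RNA appear as peaks. The control cells (shControl, genotype WT) and the knockdown cells (shNAT10, genotype NAT10 knockdown) had 3 libraries each, and the labels do not say whether these came from separate cultures. The shRNAs were brought in by lentivirus with puromycin selection, and the labels do not name which NAT10 shRNA was used.

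ac4C is an acetyl mark on cytidine in RNA, and NAT10 is the enzyme known to write it. PKIB encodes an inhibitor of cAMP-dependent protein kinase (PKA) that binds the free catalytic subunit and blocks its active site. PTPRZ1 encodes a receptor-type tyrosine phosphatase of the cell surface, best known from glia, that carries chondroitin sulfate chains and binds pleiotrophin and midkine. THBS1 encodes thrombospondin-1, a secreted matrix glycoprotein that binds CD36 and CD47 and can activate latent TGF-beta.

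Each of these genes had a peak over an annotated transcript start. The sequences around those starts are shown because they hold the 5′ part of the peaks that most control libraries shared. They run 5′ to 3′ on the plus strand of GRCh38.p14, from 250 bases before the RefSeq transcript start to 30 bases into the transcript. Capitals mark bases inside the peak of every library that listed it, which was 3 control libraries for PKIB and PTPRZ1 and 2 for THBS1. The stretches are chr6:122610155-122610434, chr7:121872911-121873190 and chr15:39580829-39581108.
PKIB: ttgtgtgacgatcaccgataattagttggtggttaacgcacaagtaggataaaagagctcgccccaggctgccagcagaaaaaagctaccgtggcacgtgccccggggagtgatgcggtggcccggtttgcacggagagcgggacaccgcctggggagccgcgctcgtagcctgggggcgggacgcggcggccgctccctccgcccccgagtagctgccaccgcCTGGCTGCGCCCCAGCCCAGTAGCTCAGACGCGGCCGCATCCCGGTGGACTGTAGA
PTPRZ1: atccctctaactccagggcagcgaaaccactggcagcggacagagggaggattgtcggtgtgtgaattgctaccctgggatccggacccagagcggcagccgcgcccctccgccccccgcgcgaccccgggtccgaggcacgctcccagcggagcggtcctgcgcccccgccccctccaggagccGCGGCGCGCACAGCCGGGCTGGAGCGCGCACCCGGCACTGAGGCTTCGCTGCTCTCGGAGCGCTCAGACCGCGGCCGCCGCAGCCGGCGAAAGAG
THBS1: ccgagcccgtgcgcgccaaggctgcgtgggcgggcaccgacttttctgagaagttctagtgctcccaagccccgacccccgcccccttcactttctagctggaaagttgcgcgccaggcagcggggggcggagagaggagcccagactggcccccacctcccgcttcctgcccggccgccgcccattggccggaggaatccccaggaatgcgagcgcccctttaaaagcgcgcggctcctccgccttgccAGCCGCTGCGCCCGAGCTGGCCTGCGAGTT
The peaks ran on for 101 bases in PKIB, at least 245 in PTPRZ1 and 120 in THBS1 beyond the letters shown. The capital letters were 69.6% G or C in PKIB, 76.8% in PTPRZ1 and 73.3% in THBS1. They held the trinucleotide CCG, which belongs to the context of ac4C in ribosomal RNA, 2 times in PKIB, 6 times in PTPRZ1 and 2 times in THBS1. No background of like length was counted for these stretches, so whether they hold more CCG than others cannot be told. Their first 26 bases in PKIB and 65 in PTPRZ1 lie before the annotated start. Over the whole windows of 300 bases at these starts, CCG occurred 12, 16 and 13 times on the transcribed strand and 11, 14 and 6 times on the other strand. Of each window, 250 bases lie before the annotated start and 50 after it. Most of it is thus outside the annotated transcript, and the window counts do not describe the context of ac4C in the peaks. The median over 35097 such windows of the RefSeq table was 4 on the transcribed strand, and 80.9% of the windows held CCG there at least once (88.1% on either strand). A C followed by any 2 bases, repeated 4 times in a row, occurred 8, 15 and 14 times on the transcribed strand and 6, 6 and 3 times on the other, where 74.9% of all windows held it on the transcribed strand and 90.3% on either. Such matches overlap each other and can overlap CCG. The 3 windows were richer in G and C than most, with 67.0%, 73.3% and 70.0% against a median of 58.7%.

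The lists held between 17877 and 28752 peaks per library, and the longest was that of knockdown replicate 1. They hold no read counts, so depth is unknown, and a gene without a listed peak may still carry the mark below the calling threshold. The numbers in the peak names ran up to 159043 in control replicate 1, which listed 18241 peaks. In knockdown replicate 3, which listed 19047, they ran up to 98616. A peak may thus also have been called and left out of a list. In bulk peak lists, less RNA of a gene and less ac4C on it cannot be told apart. NAT10 itself had 1, 0 and 2 peaks in control and 2, 0 and 1 in knockdown replicates 1, 2 and 3. Peak numbers say nothing of the mRNA level, so this is no check of the knockdown. Of 11 colon epithelial markers, 7 had a peak in some library, between 4 and 7 per library in both groups, and EPCAM, CDX2, KRT8 and VIL1 had a peak in all 6. Of 8 glial markers, 3 had a peak somewhere, 1 to 2 per control and 1 to 3 per knockdown library, with MBP in all 6, and OLIG1, OLIG2, S100B and AQP4 were among those with none. The 8 fibroblast markers had peaks only in COL1A1 (0 to 1 of them per library in each group), and COL1A2, COL3A1, DCN and LUM had none. Of 9 blood and endothelial markers, 0 to 3 had a peak in a control and 0 to 1 in a knockdown library, and PTPRC, CD3E, CD68, PF4, HBB and PECAM1 had none. The part of such cells in the results was not tested.

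PKIB, on the plus strand of chromosome 6 from 122471921 to 122726373 on GRCh38, had the highest-ranked peaks of these genes. Its first peak began at 122610375 in control replicate 1, at 122610377 in replicate 2 and at 122610379 in replicate 3, and it ended at 122610535 in each. It covered an annotated start inside the gene, at 122610405, which is the second of 3, and in replicate 1 it began 138454 bases into the gene. Its widths were 161, 159 and 157 bases. The 3 control libraries thus placed it within 4 bases of each other at its start and at the same base at its end. The score listed with each peak has no stated unit and is used here only as a rank. By score this peak stood at the 68.0, 80.3 and 58.6 percentile of its own library in control replicates 1, 2 and 3.

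A second PKIB peak lay inside the gene, 161362 bases from its first base. It started at 122633283 in each control library and ended at 122633367 in replicates 1 and 3 and at 122633366 in replicate 2. With 85, 84 and 85 bases it was narrow, between the 8.96 and the 12.99 percentile of widths in its library, and it ranked at the 41.4, 71.9 and 37.2 percentile by score. Both PKIB peaks ranked highest in control replicate 2. Control replicate 3 alone listed 1 more peak, from 122717603 to 122717963, close to the 3′ end of the gene and at the 10.3 percentile. The knockdown libraries listed no peak on either strand of the gene. Their nearest peaks lay 72.1 kb below it in each of the 3 libraries, and between 63.1 and 2428 kb above it.

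PTPRZ1 spans 121873161 to 122062036 on the plus strand of chromosome 7, and its highest-ranked peak lay over the gene's only annotated start. The peak began at 121873089, 121873096 and 121873092 in control replicates 1, 2 and 3, and it ended at 121873557 in replicates 1 and 2 and at 121873435 in replicate 3. It thus began 65 to 72 bases before the annotated start in every control library, and its end differed more between libraries than its beginning. Its widths of 469, 462 and 344 bases were above those of 65.9% to 79.8% of the peaks of the same library. It ranked at the 52.3, 53.1 and 57.9 percentile by score, the narrowest spread of these genes.

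The other PTPRZ1 peaks were weak and lay far into the gene. A peak starting at 122038755 and ending at 122038873 in control replicate 1 and at 122038875 in replicate 2 stood 165594 bases from the start, at the 9.14 and 22.8 percentile. Control replicate 1 listed a peak of 72 bases at 122034307 at the 2.49 percentile, and control replicate 2 listed 30 bases at 122028614 at the 5.02 percentile. Control replicate 3 listed none of these. The only PTPRZ1 region found in all 3 control libraries was therefore the peak at the start. No knockdown library had a peak on either strand of the gene, and the nearest knockdown peaks were 477 kb below and 82.1 to 824 kb above it.

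THBS1 spans 39581079 to 39599466 on the plus strand of chromosome 15, and it met the same description with peaks at different positions. Control replicates 1 and 3 listed the same peak, from 39581079 to 39581228, which starts at the annotated start and is 150 bases wide. Control replicate 2 listed no peak there but 1 from 39581708 to 39581924, which is 217 bases wide and begins 629 bases after the start. No position in THBS1 was thus inside a peak in all 3 control libraries. The peak at the start ranked at the 19.3 and 13.7 percentile in replicates 1 and 3, and the peak of replicate 2 at the 48.8 percentile. The mean over the 3 libraries was 27.3 ± 18.9 (SD, n = 3), and it was 16.5 without control replicate 2. Knockdown libraries listed no peak on either strand, the nearest being 1097 to 1099 kb below and 335 kb above the gene.

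**Figure D1:**
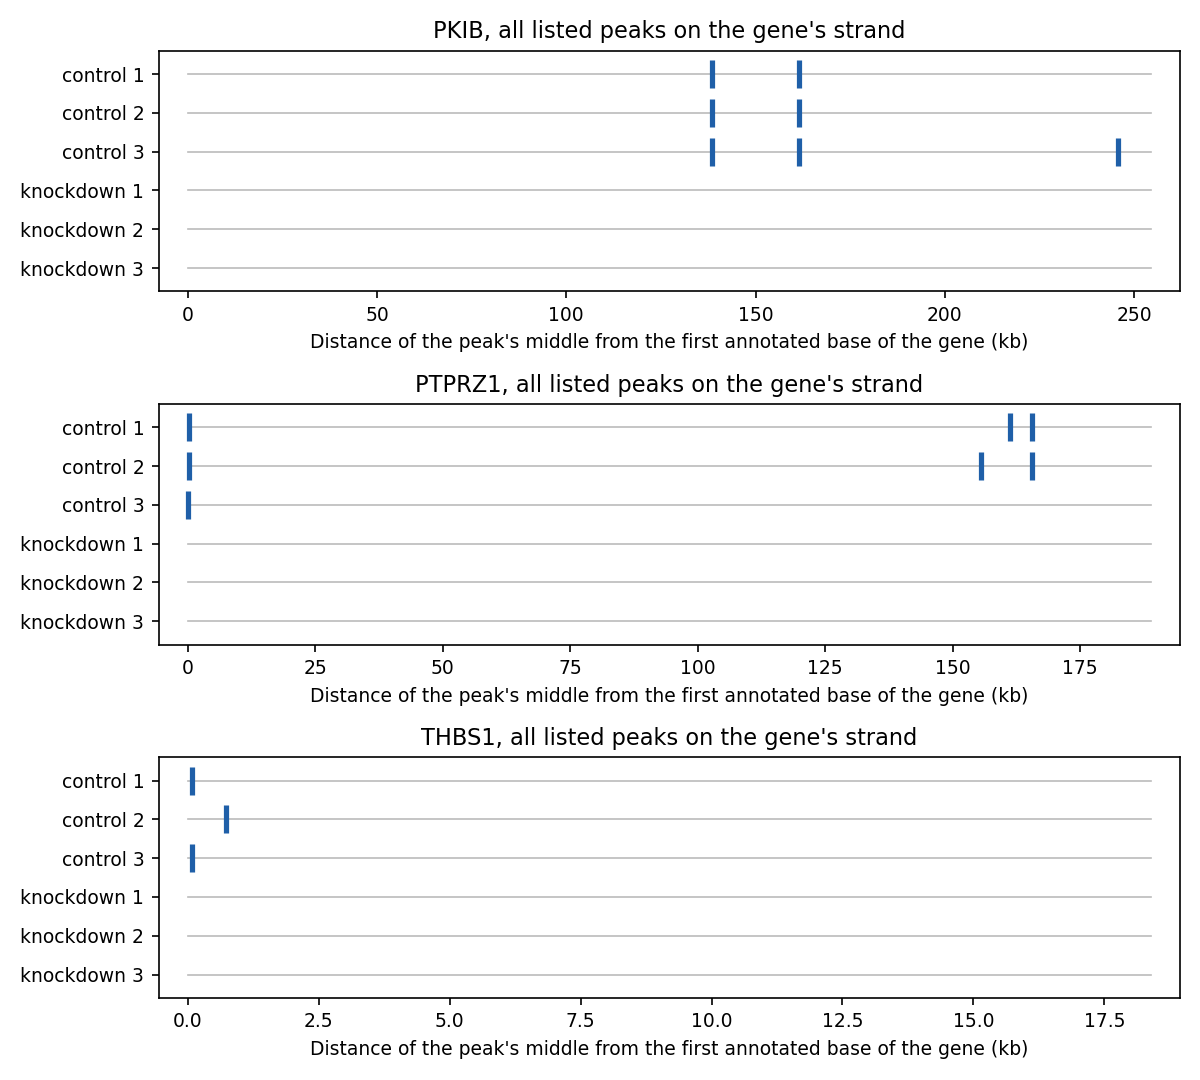
Every listed peak of PKIB, PTPRZ1 and THBS1 by library, as the distance of its middle from the first annotated base of the gene in kb; a tick is 1 peak and is not drawn to width, and grey lines are the gene spans. The 3 control libraries hold all 17 peaks, and the 3 knockdown libraries hold none.

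**Figure D2:**
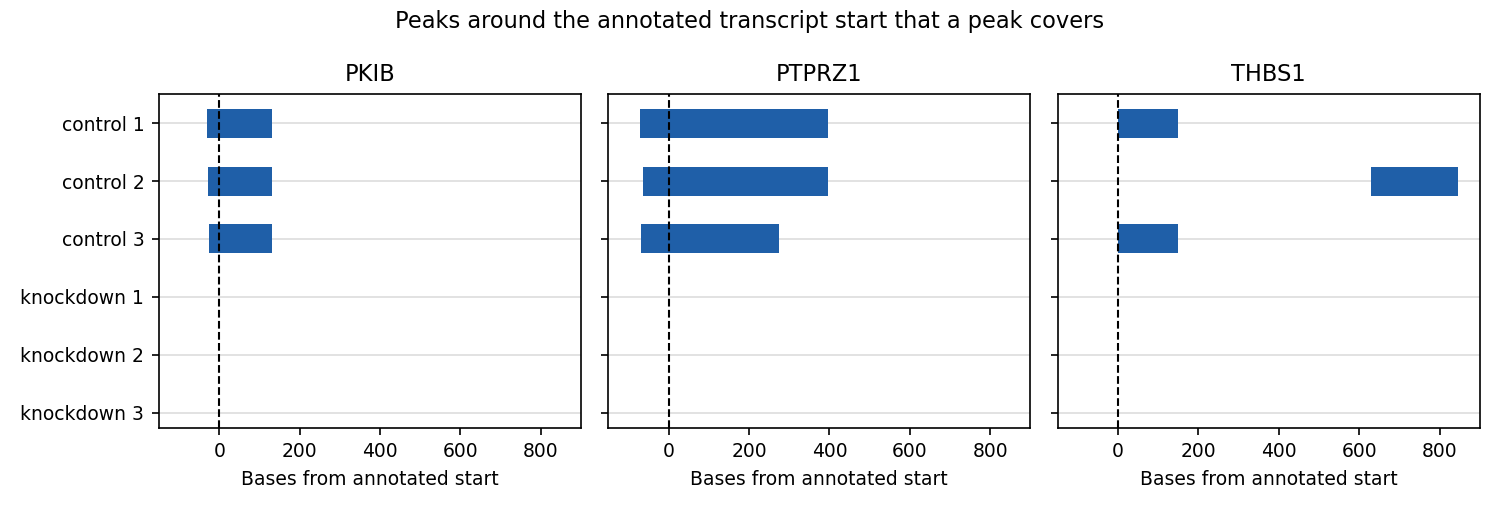
Peaks drawn to width around the annotated transcript start that a peak covers (dashed line, 0 bases), by library. In PKIB and PTPRZ1 the 3 control peaks lie over each other, and in THBS1 the peak of control replicate 2 begins 629 bases from the start and misses the other 2.

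Borders shared between libraries were common among all peaks. Among 10822 merged regions with exactly 1 peak in each control library, 86.6% had the same start in the 3 libraries, 86.2% had the same end, and 76.9% had both borders within 5 bases, as both shared PKIB peaks did. A peak over an annotated start was also common. Of the genes with a peak and an annotated start in the table, 41.3% to 42.6% per control and 40.1% to 43.4% per knockdown library had a peak covering a start.

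By the same criterion, 41 of 12293 genes with a peak, or 0.334%, had peaks in all 3 control and no knockdown libraries, and 45, or 0.366%, had them the other way round. All 3 genes described here are among the 41 by choice. With 1 library left out in turn, which loosens the criterion, the 41 became between 55 without knockdown replicate 2 and 240 without knockdown replicate 1, and it exceeded 1.5 times its value without each library other than knockdown replicate 2.

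The rank of the peaks set PKIB and PTPRZ1 apart from most of the 41 as a description. Among them, PKIB ranked 3 and PTPRZ1 ranked 4 by the mean of the gene's highest score percentile over the control libraries, with 69.0 ± 10.9 and 54.4 ± 3.05 (SD, n = 3), while THBS1 ranked 26. The median of the 41 was 30.6, against 69.9 for all 6742 genes with a peak in each control library. A merged region shared by the 3 control libraries was found in 17 of the 41, among them PKIB and PTPRZ1 but not THBS1. PKIB was 1 of 2 with at least 2 peaks in every control library, the other being EVC2. The shares of the 6742 genes with such a shared region or such peak numbers are not given here. Whether these traits are unusual therefore cannot be told. A peak over a start in each control library was found in 7 of the 37 that have a start in the table, including PKIB and PTPRZ1, against 39.2% of all genes with a start and a peak in each control library.

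**Figure D3:**
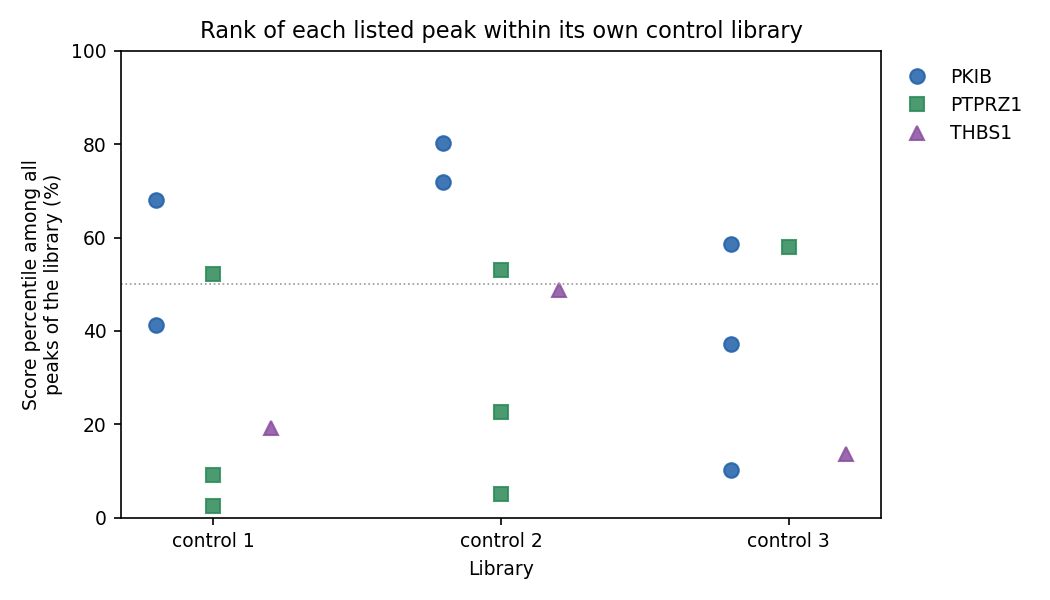
Score percentile of each peak of PKIB, PTPRZ1 and THBS1 among all peaks of its own control library, in %; each point is 1 peak and the dotted line is 50%. PKIB and PTPRZ1 have a peak above 50% in each control library, and THBS1 stays below it, at 48.8% in control replicate 2.

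How often a gene with peaks in all 3 control libraries had none in the knockdown libraries fell with the rank of its peaks. Where the mean highest percentile was at most 25, 14 of 275 genes (5.09%) had no knockdown peak. Between 25 and 50, the range of THBS1, it was 20 of 1388 (1.44%), and between 50 and 75, the range of PKIB and PTPRZ1, it was 6 of 2218 (0.271%). Above 75 it was 1 of 2861 (0.0350%). PKIB and PTPRZ1 were thus 2 of 6 genes without a knockdown peak at their rank, where 92.9% of the genes had a peak in all 3 knockdown libraries. These shares come from the same lists that chose the genes and are a description.

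When only the 50% of each library's peaks with the highest scores were kept, PKIB held 1, 2 and 1 peaks in control replicates 1, 2 and 3 and PTPRZ1 1 in each, while THBS1 had none in any library. With the 17877 highest-scored peaks of every library, all 3 genes still had a peak in each control library. Such filters remove peaks and cannot add any in a knockdown library. Assigning peaks by any overlap with the gene span, or on either strand, changed none of the 3 genes.

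The genes next to PKIB, PTPRZ1 and THBS1 were compared to ask whether peaks around each gene differed between the groups as well, since the choice of the 3 genes did not use them. Of the 30 neighbours (5 protein-coding genes on each side), 14 had a peak in some library, 12 of them in both groups and 6 in all 6 libraries. None had peaks in all libraries of 1 group and none of the other. Over all genes with a peak, 0.334% had this for control and 0.366% for knockdown. At such shares, none among 14 genes does not set the neighbours apart.

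The neighbours of PKIB held 1, 5 and 2 peaks in the control and 6, 3 and 2 in the knockdown libraries. The groups overlapped, with means of 2.67 ± 2.08 and 3.67 ± 2.08 (SD, n = 3; two-sided exact permutation test, p = 0.6, adjusted over the 3 genes 0.9; the smallest p that 3 against 3 libraries allow is 0.1). Without knockdown replicate 1 the difference, control minus knockdown, went from -1 to 0.167 peaks. HSF2, a heat shock transcription factor, was the nearest with peaks on the lower side, 38.8 kb away, with a peak in control replicates 2 and 3 and in every knockdown library. On the upper side it was SMPDL3A, 62.9 kb away, with a peak in control replicate 2 and knockdown replicate 1. SERINC1, which ends 0.114 kb from the first base of PKIB, and FABP7 had no peak in any library.

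The neighbours of PTPRZ1 held 8, 8 and 5 peaks in the control and 6, 3 and 5 in the knockdown libraries, again with overlap. These sums can count 1 control peak more than once, since a peak in overlapping spans counts in each gene. RNF148 had 1 peak, in control replicate 1, and CADPS2, whose strand was unknown, had 3 there. The values below can share this, other than those with 3 genes a side or a window of 1 Mb. The means were 7.0 ± 1.73 and 4.67 ± 1.53 (SD, n = 3; two-sided exact permutation test, p = 0.3, adjusted 0.9). The difference of 2.33 peaks, control minus knockdown, became 3.67 when each library kept its 17877 highest-scored peaks and 1.33 when it kept the better-scored 50%. In both of these settings the groups no longer overlapped, with the smallest p the design allows (two-sided exact permutation test, p = 0.1, not adjusted). The difference was smaller with 3 genes a side, at 1 peak, and with a window of 1 Mb, at 1.67 (two-sided exact permutation test, p = 0.7 and 0.3, not adjusted). AASS, an enzyme of lysine breakdown 11.5 kb above PTPRZ1, had 1 peak in every library except knockdown replicate 2. FAM3C, 477 kb below, had 1 peak in every library except knockdown replicate 1, which had 2.

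Beside THBS1 the counts were 10, 13 and 6 in the control and 10, 10 and 8 in the knockdown libraries. The means were 9.67 ± 3.51 and 9.33 ± 1.15 (SD, n = 3; two-sided exact permutation test, p = 1, adjusted 1). The difference of 0.333 peaks became -1.33 without control replicate 2 and -0.333 without knockdown replicate 3, and lay at 0.667 without knockdown replicate 1 or 2, at 0.167 without control replicate 1 and at 2.17 without control replicate 3. EIF2AK4, a kinase of the amino acid starvation response 335 kb above, had 5, 6 and 2 peaks in the control and 3, 4 and 5 in the knockdown libraries. FAM98B, 1093 kb below, had 4, 6 and 3 against 4, 4 and 3. FSIP1, whose span overlaps the 3′ end of THBS1 on the other strand, had none.

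**Figure D4:**
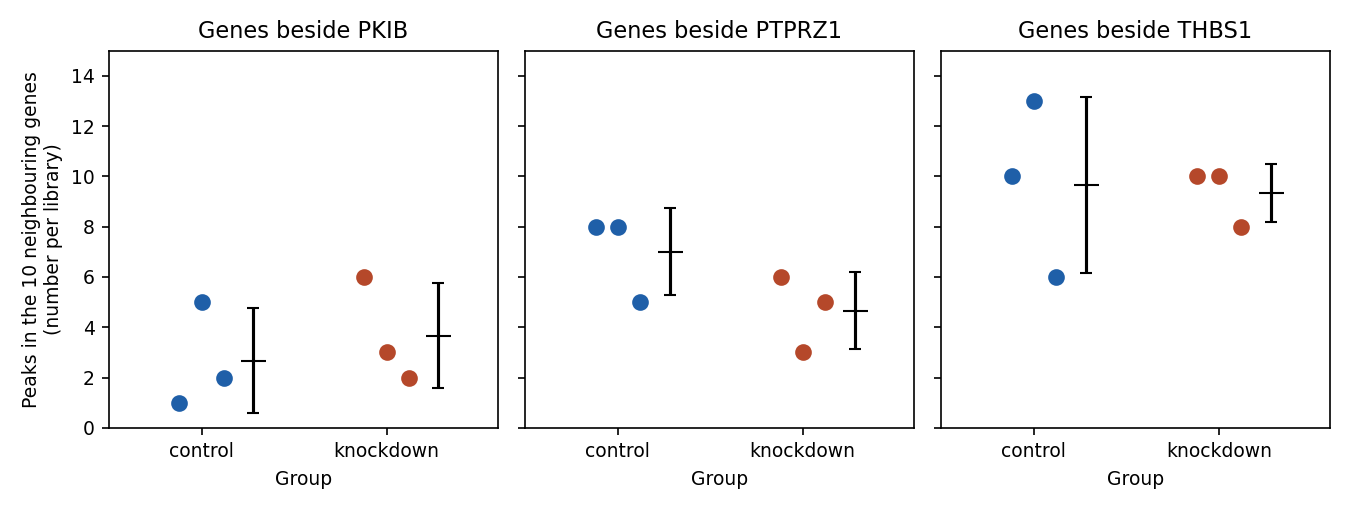
Number of peaks per library in the 10 protein-coding genes beside PKIB, PTPRZ1 and THBS1; points are the 3 libraries of a group and the bar is their mean ± SD. With all listed peaks, as drawn, control and knockdown libraries overlap beside each of the 3 genes. Settings that keep fewer peaks are not drawn. A peak in overlapping spans counts in each gene.

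The pathways of the 3 genes were followed with lists of genes that left out the 3 themselves. The PKA list held 47 genes, of which 46 are in the gene table, and 40 of these had a peak in some library, 27 of them in each of the 6. Of these, 0 had peaks in all control and no knockdown libraries and 1 the other way round, ADCY5, an adenylyl cyclase, with 1 peak in each knockdown library (0.334% and 0.366% of all genes with a peak). The genes given next from the lists were named after their values were seen. The other PKA inhibitors had peaks in every library. PKIA had 1 in each control library and 2, 1 and 1 in the knockdown libraries, and PKIG had 4, 3 and 4 against 4, 3 and 3. So had the catalytic subunit PRKACA, the target of these inhibitors, with 4 in each control library and 4, 3 and 4 in the knockdown libraries.

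Of 20 ligands, partners and substrates of PTPRZ1, 14 had a peak in some library, 9 in all 6, and 0 were found in all libraries of 1 group alone. The share over all genes with a peak was 0.334% for control and 0.366% for knockdown, so 0 in so short a list is no trait of it. The ligand PTN had no peak, and the ligand MDK had 1 in knockdown replicates 1 and 3 and none in the control libraries. GIT1, a substrate, had 3 peaks in each control library and 2, 3 and 3 in the knockdown libraries. Of 19 other receptor-type tyrosine phosphatases, 11 had a peak, 8 of them in every library. Again 0 were found in all libraries of 1 group alone (0.334% and 0.366% of all genes with a peak). PTPRG, the closest relative of PTPRZ1, had none. PTPRU had 1, 5 and 4 peaks in the control libraries and 8, 0 and 0 in the knockdown libraries.

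Of the 4 other thrombospondins, 3 had a peak in some library, and none had 1 in each of the 6. THBS2 had none and THBS4 had 1, in control replicate 2. THBS3 had 1, 5 and 1 peaks in the control and 2, 0 and 1 in the knockdown libraries, and COMP had 1, 1 and 0 against 3, 0 and 1. Of 29 receptors and partners of THBS1, 21 had a peak, 12 of them in every library. Here too 0 were found in all libraries of 1 group alone (0.334% and 0.366% of all genes with a peak). The receptor CD36 had none, and CD47 had 1 in every library except control replicate 1. TGFB1, whose latent form THBS1 can activate, had 4 peaks in each library except knockdown replicate 3, which had 3. FN1, the matrix protein fibronectin, had 2, 3 and 2 peaks in the control and 1, 0 and 0 in the knockdown libraries. Others of this list had peaks in knockdown libraries alone. ITGA4, ITGB1 and LTBP1 had 1 in knockdown replicate 1, ITGB3 had 1 in replicate 2 and VEGFA had 1 in replicate 3.

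The genes most like each of the 3 were found by the summed absolute difference in highest score percentile over the 6 libraries, with 0 where no peak was listed. For PKIB they included HNRNPDL (17.3) and ANKRD18A (25.2). For PTPRZ1 they included LHFPL6 (36.9), which had a peak in knockdown replicate 1, and FAM114A1 (37.9). For THBS1 they were SLC6A16 (13.6), INTS4 (14.1) and MGLL (16.7), and MGLL had a peak in knockdown replicate 1. None of these shared a chromosome with the gene it resembled.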

How the data were processed

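Peak lists of 6 acRIP-seq libraries were used. The 6 input libraries came without a peak list. Per the labels the genome build was GRCh38, and the peaks carry names of the MACS caller. The aligner, caller version and settings are not given in the sources used here. The authors deposited 1 list per library, named as limited to mRNA, with a start and end in bases and a score per peak (lowest 50, highest 3233). The score deposited was used only as a percentile among the peaks of its library. Without counts, no depth or interval could be given.

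A peak was assigned to a protein-coding gene of the RefSeq GRCh38.p14 table when its midpoint lay in the span on the same strand. The strand was known for 15843 of 20056 genes, and for the others either strand counted. A peak in overlapping spans counted in each gene. Of all peaks, 96.6% lay in a gene. Exon, coding and UTR positions were not analysed here. Peaks sharing at least 1 base on a strand were merged into regions. No genome was used, so motifs were counted in the start windows and not in whole peaks. For the neighbours, peaks per library were set against each other in two-sided exact permutation tests with Benjamini-Hochberg adjustment over 3 tests.

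The genes, lists and rules were chosen with earlier results of these data known. Named were the 3 genes with every peak, the nearest neighbours with peaks, list genes with peaks in 1 group alone, markers in all 6 libraries and the 3 most alike genes, and other list genes after their values were seen. Some genes that the rules name are not reported here. Assignment and calling were run on simulated lists with planted control-only genes. These genes had a known strand and no overlap on it, so the run checks the code alone and not overlapping spans. Alternatives kept the better-scored 50% of peaks or equal peak numbers, or used any overlap, either strand, coverage of 50% of a merged region, rank among genes, 3 neighbours a side, a window of 1 Mb, a block for the replicate number, or 1 library fewer. Genes of known strand alone were added after the data were seen. Python 3.11.15 was used with numpy 2.4.6, pandas 2.3.3, scipy 1.17.1 and matplotlib 3.10.9.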

Additional observations from a re-analysis of the deposited data

How the results depend on the processing

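Leaving out a library cannot change that PKIB, PTPRZ1 and THBS1 have peaks in all control and no knockdown libraries, since they were chosen for it, and a filter on score can only take control peaks away. With the better-scored 50% of peaks, PKIB and PTPRZ1 still had a peak in each control library, and for THBS1 the share of control libraries with a peak minus that of knockdown libraries dropped from 100 to 0 percentage points because all its peaks rank lower. With equal peak numbers, genes with peaks only in control libraries rose from 41 to 71, of which 22 were among the 41, and those only in knockdown libraries went from 45 to 39. With the better-scored 50% of peaks the former were 38, of which 4 were among the 41, and the latter 36. In the lists, that filter took ADCY5 away (from 1 to 0), and equal peak numbers added PTPRU and FN1 (from 0 to 1 in their lists), both with peaks only in control libraries. The cause of these changes was not tested. Ranked among genes rather than peaks, the mean highest percentile was 57.2 for PKIB and 41.1 for PTPRZ1. With a window of 1 Mb in place of 5 genes a side, the difference beside THBS1 turned from 0.333 to -5.33 peaks (two-sided exact permutation test, p = 0.3).

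Leaving out each of the 6 libraries in turn, genes with peaks only in control libraries ranged from 55 to 240 and only in knockdown libraries from 71 to 139, since fewer libraries have to meet the criterion. The neighbour difference ranged from -2.17 to 0.167 peaks beside PKIB and from -1.33 to 2.17 beside THBS1, and from 1.5 to 3.33 beside PTPRZ1. Beside PTPRZ1 it was 3.67 with equal peak numbers and 1.33 with the better-scored 50% of peaks (two-sided exact permutation test, p = 0.1 in both, the smallest possible), against 2.33 with p = 0.3. With 3 genes a side it was 1 there, and with a window of 1 Mb 1.67 (two-sided exact permutation test, p = 0.7 and 0.3). The window counts each peak once, while the sums over 5 genes a side can count the control peak of RNF148 in CADPS2 as well. In a fit with a replicate block the differences of -1, 2.33 and 0.333 peaks beside PKIB, PTPRZ1 and THBS1 stay the same by construction, with p = 1, 0.5 and 1 (exact sign-flip permutation test, smallest p possible 0.25). Libraries with the same number did not deviate together in raw peak numbers (correlations across genes of -0.179, -0.122 and -0.00401), and the numbers were not taken as pairs. List length was not taken out of these correlations, so they cannot exclude pairs. As depth is unknown, a peak that was not listed may have been missed.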

Other observations

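Only ANKRD18A and HNRNPDL, of the 41 genes with peaks in all control and no knockdown libraries, ranked above PKIB by mean highest score percentile, at 77.4 and 72.6, each with 1 peak in every control library. HNRNPDL encodes an RNA-binding protein of the hnRNP family. EVC2, the other gene with at least 2 peaks in each control library, held 9 control peaks in all, and none of its merged regions was found in more than 1 control library. These genes were named after their values were seen.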
